A study of Homo sapiens with 52 samples.

Results

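In 17 of 51 single KBM7 cells, at least 1 chromosome touched the nuclear lamina along less than 50% of its usual share. KBM7 is a human cell line from chronic myeloid leukaemia. The cells came from clone 14, a single clone that the labels give as diploid, and carried the DNA methyltransferase Dam fused to Lamin B1. The fusion was induced with 0.5 nM Shield1 for 15 h, and single cells were sorted from the 2% smallest that carried both of the Fucci markers of cell cycle phase. All 51 cells share this treatment and form 1 group, so the cells with a low chromosome (17) and those without (34) were told apart by the measured contact alone.

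The nuclear lamina is a protein mesh under the inner nuclear membrane, and long gene-poor stretches of chromosomes, called lamina-associated domains, tend to lie against it. In DamID, DNA that comes close to the fusion protein gains adenine methylation and is then amplified and sequenced. The mark builds up during the induction, so each cell gives 1 accumulated picture of its contacts, and a change over time within a cell was not seen here.

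The deposited values are ratios of an observed to an expected signal, called OE, for each bin of 100 kb, and a bin with an OE of at least 1 counted as in contact. For each cell and each autosome or joined chromosome, the share of measured bins in contact was taken. The 17 chromosomes whose mean share over the 51 cells reached 20% were used, which are 1 to 7, 10 to 15, 18, 20, 21 and the joined sequence 9:22. A pair of a cell and a chromosome was called low where its share lay under 50% of the chromosome's mean. Of 867 pairs, 26 were low (3.00%). These shares chose the cells, so they are a description with no test. The labels name no separate cultures, the cells of the clone count as 1 sample, and no p-value is given for any value here.

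The low pairs were spread unevenly over cells and chromosomes. In 12 cells 1 chromosome was low, in 2 cells 2, in 2 cells 3, and in cell 42 there were 4. The low chromosomes were 5, 10, 12 and 15 in cell 42, 1, 12 and 20 in cell 18, 13, 15 and 21 in cell 41, 11 and 12 in cell 10, and 12 and 21 in cell 32. The other cells had 1 each, namely chromosome 15 in cells 7, 28, 31, 35, 49, 50 and 51, chromosome 21 in cells 36 and 39, chromosome 13 in cell 22, chromosome 20 in cell 43 and 9:22 in cell 9. The remaining 7 chromosomes (2, 3, 4, 6, 7, 14 and 18) were low in none of the 51 cells. Of the 26 pairs, 17 lay on the 6 chromosomes with under 1000 measured bins, where 5.56% of pairs were low, against 1.60% on the larger chromosomes.

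**Figure D1:**
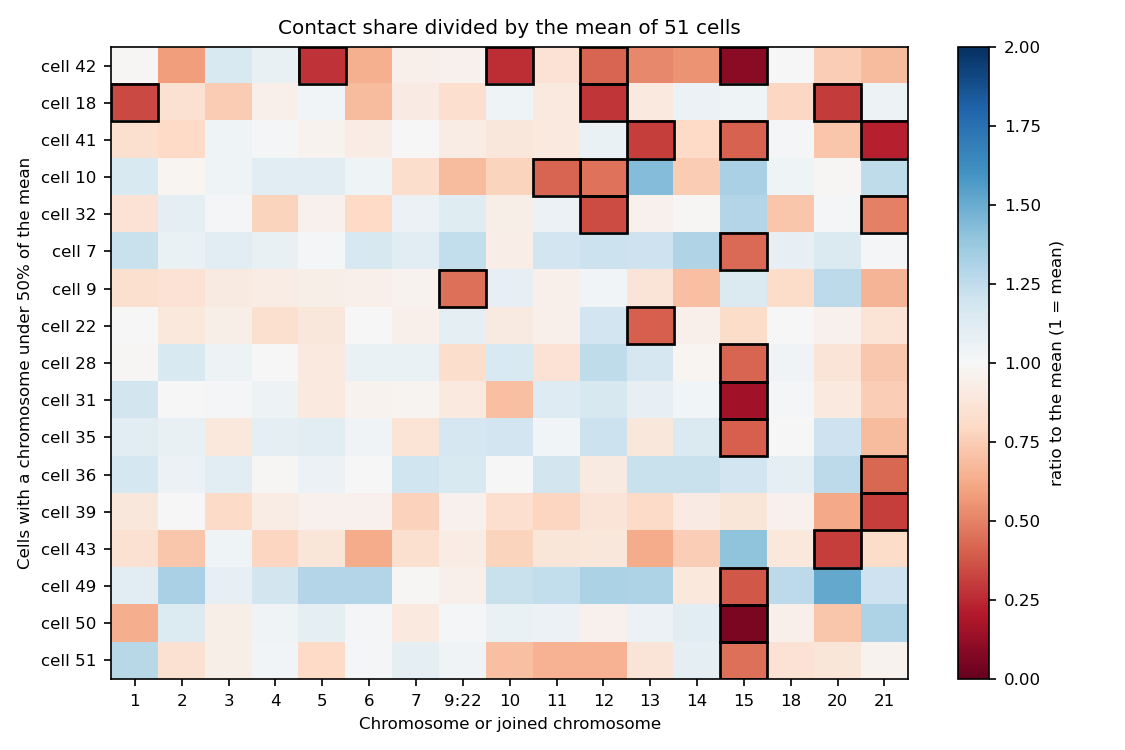
The contact share of each of the 17 chromosomes (columns) in each of the 17 cells with a low chromosome (rows), divided by the mean of 51 cells. Red stands for a share below the mean and blue for one above it, and the outlined low pairs gather on chromosome 15, which is low in 9 cells.

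Chromosome 15 was the most often low, in 9 cells. Its mean share was 23.9% ± 10.3 (SD over 51 cells), the largest spread for its mean among the 10 chromosomes with a low pair. In order, the low cells had 1.35% (cell 50), 2.31% (cell 42), 3.85% (cell 31), 9.04% (cell 49), 9.62% (cell 35), 9.81% (cell 41), 10.0% (cell 28), 10.4% (cell 7) and 10.8% (cell 51). The 34 cells without a low chromosome ran from 13.7% to 44.6%, with a median of 27.8%. Cells 50, 42 and 31 stand apart from the next by more than the 3 differ among themselves. Only 520 bins of this chromosome were measured, and the stretch from 61000001 to 89900000 (hg19) held no values. In cell 50 only 7 of the 520 bins were in contact (95% Wilson interval 0.654% to 2.75%). Such intervals, and the limits given below for shares of 0, cover counting error over bins only. Neighbouring bins are not independent, and the reads carry no molecular identifiers.

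Chromosome 12 was low in 4 cells, with 7.78% in cell 18, 9.31% in cell 32, 11.2% in cell 42 and 12.4% in cell 10. The cells without a low chromosome had 20.0% to 39.6%, with a median of 27.8%. Chromosome 21, the shortest of the 17 in measured bins (356), was low in 4 cells, with 5.34% in cell 41, 7.30% in cell 39, 10.1% in cell 36 and 11.8% in cell 32. There the cells without ran from 13.5% to 43.8%, with a median of 25.7%.

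Chromosomes 13 and 20 were each low in 2 cells. On chromosome 13 the share was 10.4% in cell 41 and 13.3% in cell 22, against 17.0% to 50.8% in the cells without (median 33.5%). On chromosome 20 it was 6.83% in cell 18 and 7.00% in cell 43, against 11.8% to 32.8% (median 23.4%).

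Each of the other 5 chromosomes was low in a single cell. Chromosome 5 had 10.2% in cell 42, from 181 of 1766 bins (interval 8.92% to 11.8%), where cells without a low chromosome had 28.4% to 52.1% (median 37.1%). Chromosome 10 had 7.57% in the same cell, from 99 of 1307 bins (6.26% to 9.14%), where the others had 18.4% to 44.8% (median 30.6%). On these chromosomes the low cell stood well below every cell without a low chromosome.

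Chromosome 1 had 7.54% in cell 18, where the cells without a low chromosome had 11.5% to 30.6% (median 22.7%). Chromosome 11 had 14.5% in cell 10, against 25.7% to 46.7% (median 36.3%). The joined sequence 9:22, which follows the translocation typical of chronic myeloid leukaemia, had 12.5% in cell 9, against 17.3% to 37.8% (median 29.1%).

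**Figure D2:**
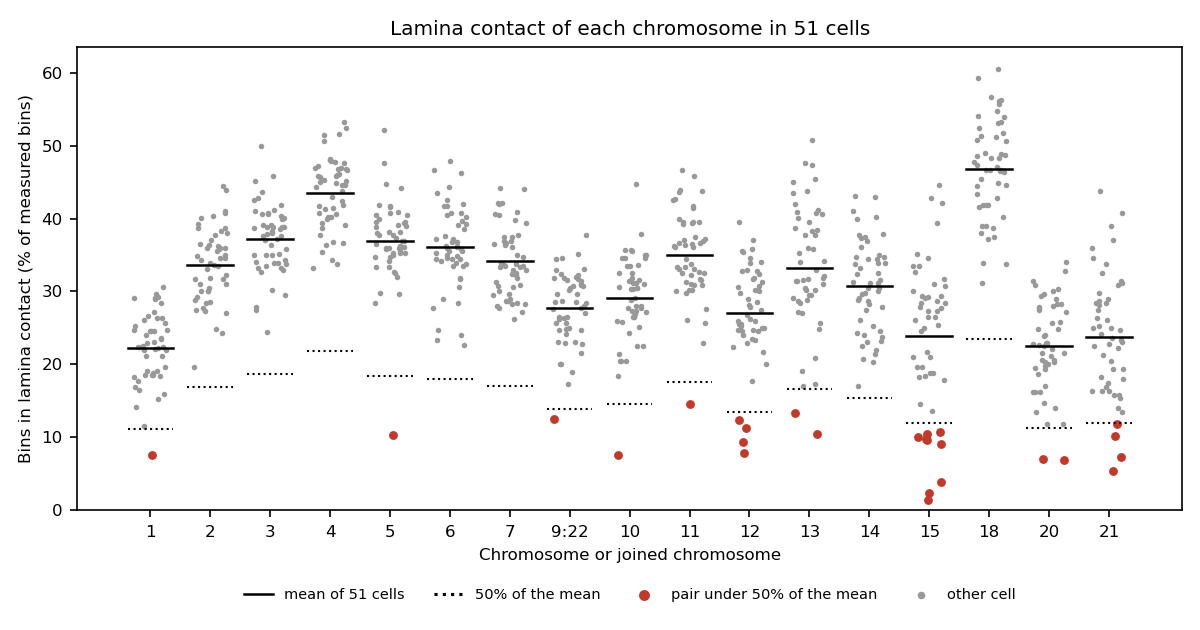
Share of measured bins in lamina contact (vertical axis, %) for the 17 chromosomes (horizontal axis) in 51 cells, each point being 1 cell. Red points are the 26 low pairs, the solid bar is the mean of 51 cells and the dotted bar 50% of it, and the red points on chromosomes 5 and 10 lie far below the grey ones.

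The border of 50% cut through a run of close values. Just inside it were chromosome 15 in cell 51 at 0.450 of the mean, 9:22 in cell 9 at 0.452, chromosome 12 in cell 10 at 0.457 and chromosome 21 in cell 32 at 0.496. Just outside were chromosome 13 in cells 29 (0.512) and 42 (0.519), chromosome 1 in cell 19 (0.519) and chromosome 20 in cell 3 (0.527). The lowest 5 pairs were chromosome 15 in cells 50 (0.0563), 42 (0.0965) and 31 (0.161), chromosome 21 in cell 41 (0.224) and chromosome 10 in cell 42 (0.261).

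Low pairs were mostly the same in alternating blocks of the same chromosome. Each chromosome was cut into alternating blocks of 1 Mb, and the rule was applied to the odd blocks alone. It then picked 27 pairs, of which 25 were also picked from the even blocks. In the even blocks, which that choice did not use, the ratio of the 27 pairs to the mean had a median of 0.368 and ran from 0 to 0.725. Neighbouring blocks share the domains that span them, so the 2 sets of blocks are not independent. The long stretches without contact described below each span many blocks, so this agreement adds no separate support.

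The opposite case, a share of at least 150% of the mean, was found in 12 pairs (1.38%) of 8 cells. These lay mostly on the same small chromosomes, 5 on chromosome 21 and 4 on chromosome 15, with chromosome 15 in cell 17 the highest at 1.87 of the mean. The group of cells with a low chromosome held 1 of the 12, chromosome 20 of cell 49 at 1.51, and the cells without held 11.

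Contact that remained on most low chromosomes was weighted towards bins that most cells hold at the lamina. Bins were classed by their contact frequency in the 34 cells without a low chromosome. Of the 2126 bins still in contact on the low chromosomes, 66.4% were bins contacted in at least 80% of those cells, 28.9% in 20% to under 80% and 3.72% in above 0 to under 20%. The remaining 21 bins (0.988%) were in contact in none of those cells. Beside the 66.4%, the usual high-frequency share of the same chromosomes was 52.8%, weighted by the kept bins of each pair. The share in the high-frequency class ran from 10.5% (chromosome 21 of cell 41) to 88.9% (chromosome 10 of cell 42) over the pairs. In the cells without a low chromosome the same chromosomes had 30.3% to 64.7% of their contacts in that class, and 23 of 26 low pairs had a larger share than usual. The excess was small in some of them, as on chromosome 11 of cell 10 with 64.4% against 63.8%.

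Relative to the cells without a low chromosome, low pairs kept a median of 0.423 of the contact in bins of high frequency (range 0.0507 to 0.670) and 0.228 in bins of intermediate frequency (range 0.0324 to 0.414). The first ratio exceeded the second in 22 of 26 pairs. In bins of low frequency the median was 0.174 and the lowest value 0, and these ratios rest on few contacted bins.

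Chromosomes 5 and 10 of cell 42 show this order with many bins. On chromosome 5, 33.2% of the 467 high-frequency bins were in contact (92.5% in the cells without a low chromosome), and 5.68% of the intermediate bins (51.9%). On chromosome 10, 32.5% of 271 high-frequency bins were in contact (92.6%) and 3.38% of intermediate bins (48.5%). Both classes were far below their usual level, and the intermediate bins were the further below.

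Cell 32 had the same order on both of its low chromosomes. On chromosome 12 it kept 38.1% of high-frequency and 9.92% of intermediate bins in contact (91.3% and 50.2% in the cells without a low chromosome), and on chromosome 21 51.2% and 15.3% (91.7% and 43.5%).

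Chromosomes 21 and 15 of cell 41 had the opposite order. On its chromosome 21, 4.65% of the 43 high-frequency bins were in contact (91.7% in the cells without a low chromosome) against 9.91% of intermediate bins (43.5%). Its chromosome 15 had 18.4% of the high-frequency and 20.2% of the intermediate bins in contact.

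**Figure D3:**
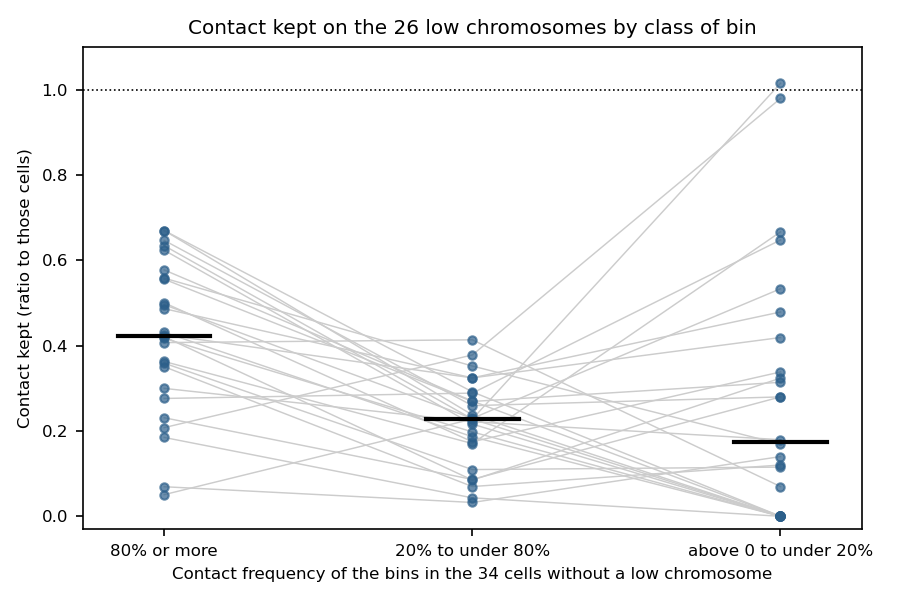
Contact kept on the 26 low chromosomes, as the share of bins in contact divided by the mean share of the same bins in the 34 cells without a low chromosome (vertical axis), for 3 classes of bins (horizontal axis). Each line is 1 low pair, and the medians are 0.423, 0.228 and 0.174 from the most to the least often contacted bins.

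The same order appeared, less steeply, in pairs that the rule did not pick. In the 65 pairs with 0.5 to under 0.75 of the mean, the median kept was 0.765 in high-frequency and 0.456 in intermediate bins, and 62 of 65 had the higher value in the high-frequency bins. In the 693 pairs from 0.75 to under 1.25 the medians were 1.00 and 0.969, and in the 83 pairs of 1.25 or more they were 1.07 and 1.46. High-frequency bins are near their ceiling in the usual cell, so they have little room above 1.

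The share of high-frequency bins with no signal at all differed widely between low pairs. A median of 22.3% of these bins had an OE of 0, and 16 of 26 pairs had more than any cell without a low chromosome. On chromosome 21 of cell 41 it was 69.8%, where the highest of the cells without a low chromosome had 9.30%. On chromosome 5 of cell 42 it was 27.2%, against a median of 0.428% and a highest value of 2.78%. Chromosome 15 had 38.8% in cell 42 and 28.6% in cell 31, but 14.3% in cell 50, which equals the highest value of the cells without a low chromosome. The 10 pairs within the range of those cells included chromosome 21 of cell 36 with 0%, chromosome 21 of cell 32 with 2.33%, chromosome 15 of cell 28 with 4.08% and chromosome 1 of cell 18 with 13.1% (highest 19.6%).

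In most low pairs the contacts that remained were also weaker than the usual median and more broken up. The median OE of bins in contact lay below the median of the cells without a low chromosome in 24 of 26 pairs, with a median over pairs of 1.75 against 2.29. It was below every one of those cells in only 6 pairs, and on 9:22 of cell 9 it was higher (2.91 against 2.34). The mean length of runs of neighbouring contacted bins was below the median of the cells without a low chromosome in 25 of 26 pairs. In 17 pairs it was below every one of those cells. The share of the cell's reads that fell on the low chromosome was 0.116 to 0.567 of the usual share, with a median of 0.342. All these come from the same OE values as the rule.

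The missing contact was continuous over long stretches. The longest stretch of neighbouring measured bins without any contact on a low chromosome had a median of 257.5 bins, with a range from 87 to 871 bins. It exceeded the median of the cells without a low chromosome in 25 of 26 pairs, and the longest stretch in any of those cells in 19 of 26. The stretches were picked for their lack of contact, so their values are a description.

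On chromosome 5 of cell 42, no bin was in contact from chr5:97600001-180800000, which is 832 bins up to the last measured bin. The same bins had a mean share of 35.1% in the cells without a low chromosome (lowest 17.1%), and 189 of them were high-frequency bins. The longest such stretch on chromosome 5 in those cells was 210 bins. A share of 0 in 832 bins allows up to 0.361%.

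On the joined sequence 9:22 of cell 9, the stretch ran over 871 bins from 74300001 to 161400000, counted along the joined sequence, again to its last measured bin. The mean share there was 19.8% in the cells without a low chromosome, with a lowest cell of 9.53%, and their longest stretch on this sequence was 479 bins. Cell 9 is the shallowest of the 51 cells, with 50978 reads.

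On chromosome 10 of cell 42 the stretch covered 513 bins from the first measured bin to position 56200000, across the unmeasured gap in the middle of the chromosome. Those bins had a mean share of 28.8% in the cells without a low chromosome (9.75% to 44.8%), whose longest stretch was 173 bins. On chromosome 11 of cell 10 it covered 372 bins from 100001 to 37300000, where those cells had 26.1% to 50.0% and a longest stretch of 238 bins. In each of these 4 pairs no bin of the stretch was in contact, while every cell without a low chromosome had contacts there.

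In 5 Mb windows, low pairs combined long empty parts with patches at reduced levels. Windows with a mean share of at least 20% in the cells without a low chromosome were compared with that mean. Of 272 such windows on the low chromosomes, 192 lay under 50% of it, 96 of them with no contact, 72 lay between 50% of it and the mean, and 8 reached it or more. A pair had a median of 72.1% of its windows under 50%. In the cells without a low chromosome 7.13% of windows were, over all 17 chromosomes together. Single cells among them reached up to 71.4% on chromosome 15, with 7 compared windows, and up to 75.0% on chromosome 21, with 4. Every window was under 50% on chromosome 15 of cells 42 and 50 and on chromosome 21 of cell 36. The rule used these contacts, so nothing is read from the difference.

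**Figure D4:**
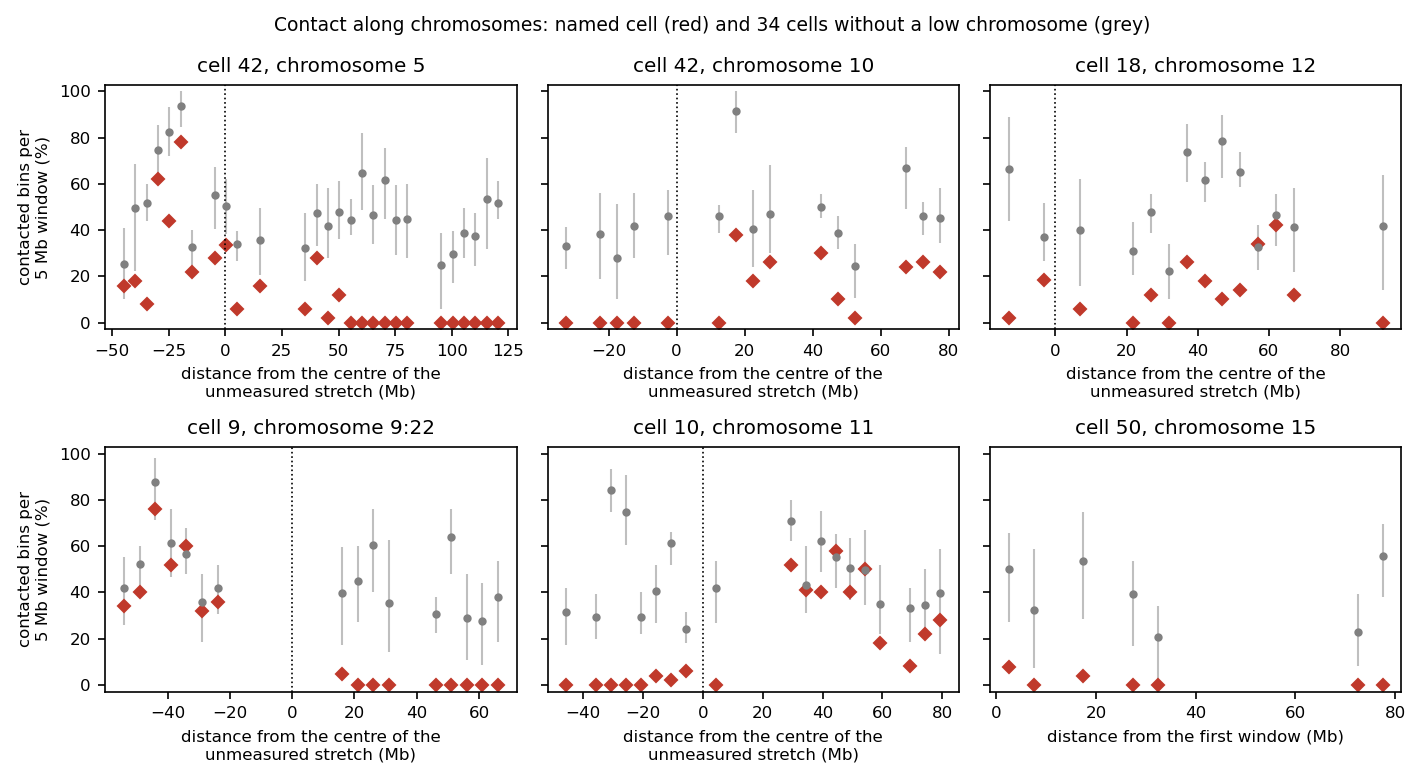
Share of bins in contact in 5 Mb windows (vertical axis, %) along 6 low chromosomes (horizontal axis, Mb). Red diamonds are the named cell and grey points with bars the mean and the 10th to 90th percentile of the 34 cells without a low chromosome, and the windows are at or near 0 over the outer part of the second arm of chromosome 5 in cell 42, the second arm of 9:22 in cell 9 and the first arm of chromosome 11 in cell 10.

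The longest block of windows under 50% of that mean had a median of 25 Mb over the 26 pairs, counting compared windows only. It exceeded the longest block in any cell without a low chromosome in 18 of them. By this count the longest, 70 Mb, lay on chromosome 5 of cell 42 between 90000001 and 170000000. It had 7 of 800 bins in contact (0.875%) against 40.3% in the cells without a low chromosome (lowest 20.4%). The block held 328 reads, and its mean OE was 0.0726, where the lowest of those cells had 0.473. Windows that were not compared neither ended nor lengthened a block, so blocks can span more. From end to end the median was 37.5 Mb, with 80 Mb for this block and at most 85 Mb, on chromosome 1 of cell 18.

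Blocks of 45 Mb lay on 9:22 of cell 9 (2 of 542 bins in contact, 0.369% against 33.8%) and on chromosome 11 of cell 10 (8 of 516 bins, 1.55% against 42.8%). Each of them spanned 55 Mb from end to end. Chromosome 12 of cell 18 had a block of 50 Mb, spanning 70 Mb, with a share of 8.63% against 41.2%. Contact there was thus reduced rather than absent. Chromosome 21 of cell 41 had none of 150 bins in contact from chr21:20000001-35000000 (40.7% in the cells without, 2.00% allowed by a share of 0). Chromosome 15 of cell 35 had none of 184 from chr15:20000001-40000000 (38.2%, 1.63% allowed).

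Kept contact was scattered over 6 to 74 runs of neighbouring bins per low chromosome (median 23). The bins of the longest run had a mean frequency of at least 80% in the cells without a low chromosome in 16 of 26 pairs, with a median of 83.6%. The lowest were 14.7% on chromosome 21 of cell 41, 41.0% on chromosome 15 of cell 41 and 51.5% on chromosome 20 of cell 43. The longest run of contacted bins on chromosome 5 of cell 42 was 2.3 Mb at chr5:25800001-28100000, which 94.8% of the cells without a low chromosome contacted on average over its bins. The 5 Mb window around it kept 78.0% of bins in contact (93.9% in the other cells). On chromosome 10 of cell 42 the longest run was 1.8 Mb at chr10:109300001-111100000 (95.4% in those cells). On chromosome 15 of cell 50 it was 0.2 Mb at chr15:36500001-36700000 (88.2%).

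Kept windows did not always follow the usual frequency. On chromosome 12 of cell 42 the window from 125000001, close to the chromosome's end, had 70.0% of bins in contact where the cells without a low chromosome had 41.7%. On chromosome 15 of cell 35 the window from 95000001 was likewise above the 55.6% of those cells, while its first measured 247 bins held no contact. Bins beside the longest inner stretch without values, or at the first measured end, were not favoured as a class. Within 10 Mb of that stretch or end, the kept ratio exceeded that of the rest of the chromosome in 10 of 26 pairs. Only 11 of the 26 pairs were measured beside the stretch. On chromosomes 13, 15 and 21 the first 10 Mb measured were taken instead.

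On chromosomes with both arms measured, the arms were either both low or unequal. Arms were split at the longest inner stretch without values, which leaves out chromosomes 13, 14, 15 and 21. Of the 22 arms of 11 low pairs, 16 were under 50% of the mean of the cells without a low chromosome. In those cells 1.70% of arms were (15 of 884), and on the other chromosomes of the cells with a low chromosome 7 of 420 (1.67%). The rule used the contacts of the 22 arms.

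Both arms were under 50% in 5 of the 11 pairs, as on chromosome 1 of cell 18, with 0.392 of the usual contact on the first arm and 0.273 on the second. In 7 of the 11 pairs an arm had under 0.1 of its usual contact, and in 4 of these the other arm had over 0.5. On 9:22 of cell 9, the second arm had 0.324% (20.4% in the cells without a low chromosome) and the first arm 39.2% (45.8%). On chromosome 5 of cell 42, the second arm had 2.69% (31.9%) and the first arm 31.5% (54.4%). These chromosomes thus had an arm close to its usual level, or above 50% of it, beside an arm almost without contact. The first arm of chromosome 5 in cell 42 was still below every cell without a low chromosome (lowest 40.3%).

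Chromosome 11 of cell 10 had the reverse layout, with 1.37% on the first arm (39.7% in the cells without a low chromosome) and 22.9% on the second (33.7%). Chromosome 12 of the same cell had no contact in 349 bins of the first arm (19.6%; 0.860% allowed by a share of 0) and 16.8% on the second (31.7%). Both second arms were no higher than the lowest cell without a low chromosome, 22.9% on chromosome 11 and 21.3% on chromosome 12. The first arm of chromosome 12 was also without contact in cell 42. The first arm of chromosome 10 in cell 42 had none in 391 bins (27.6%; 0.767% allowed), and the second arm of chromosome 20 in cell 18 none in 335 bins (11.9%; 0.896% allowed). On that last arm the lowest cell without a low chromosome had 0.299%, so the value in cell 18 is not apart from those cells. In the cells without a low chromosome, 2 of 442 pairs of a cell and a chromosome had an arm under 0.1.

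Cells that shared a low chromosome overlapped to varying degrees in the bins they kept. Of the 160 bins of chromosome 15 in contact in any of its 9 low cells, 74 were in contact in 1 cell only. Cells 50 and 42, which kept 7 and 12 bins, shared none, so no bin could be kept in all 9. Cells 49 and 7 shared 33 of their 47 and 54 kept bins, and cells 49 and 51 shared 30 of 47 and 56. Of the 49 high-frequency bins, 3 were kept in none of the 9 cells. For any pair of these cells, the bins kept in both made up 0% to 70.2% of the kept bins of either cell, with a median of 22.8% over the shares of both. The window chr15:25000001-30000000 had no contact in 7 of the 9 cells (32.2% in the cells without a low chromosome).

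On chromosome 12, 328 bins were kept in any of the 4 low cells, 182 in 1 cell only and 14 in all. The window chr12:70000001-75000000 held contact in each of them, at 26.0% in cell 18, 46.0% in cells 32 and 42 and 74.0% in cell 10, where the cells without a low chromosome had 74.0%. In cell 18 this is under 50% of that mean. The window chr12:55000001-60000000 had no contact in 3 of the 4.

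On chromosome 21, 86 bins were kept in any of 4 cells, 56 in 1 only and 1 in all. Chromosome 13 had 182 bins kept in cell 22 or 41 and 46 in both, which is 46.0% of those kept in cell 41 and 35.9% of those kept in cell 22. Both cells lacked contact in chr13:65000001-70000000 (36.8% in the cells without). On chromosome 20 the cells 18 and 43 kept 77 bins in all and shared 6 of them.

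Reads in bins that are almost never in contact were also fewer on the low chromosomes. Such bins, contacted in at most 1 of the 34 cells without a low chromosome, were used as a measure of the chromosome's background signal, taken relative to the same kind of bins on the rest of the cell. The median was 0.512 over the low pairs, against a median of 0.890 in the cells without a low chromosome. The value lay below the median of those cells in 24 of 26 pairs and below every one of them in 7. It rests on 1172 reads in all, and on none for chromosome 21 of cell 36.

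The 7 pairs were chromosomes 5, 10 and 15 of cell 42, chromosome 11 of cell 10 and chromosome 15 of cells 7, 35 and 49. The last 3 had 0.114, 0.0768 and 0.171, where the lowest cell without a low chromosome had 0.315. In cell 42, chromosome 5 had 0.197 of the rest of the cell (0.573 to 3.00 in the cells without a low chromosome), chromosome 10 0.326 (0.521 to 2.19) and chromosome 15 0.189 (0.323 to 3.70), while chromosome 12 at 0.547 lay within their range (0.412 to 1.56). On the whole of 9:22 in cell 9 the value was 0.308, within the range of the cells without a low chromosome. Within the longest stretch without contact of each low pair, the same measure had a median of 0.134 and ran from 0 to 1.26 (chromosome 13 of cell 22), and it lay below every cell without a low chromosome in 6 of 26 pairs. These stretches were chosen for lacking contact in that cell, so low values there are a description.

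The background moved with contact over all 867 pairs. Its median relative to the cells without a low chromosome was 0.547 for the low pairs, 0.614 from 0.5 to under 0.75 of the mean, 0.985 from 0.75 to under 1.25 and 1.41 at 1.25 or more. Of the 12178 background bins, 10797 were contacted in none of the cells without a low chromosome, and the others in 1 of them. Reads of a contact called in such a bin count as background, so the measure is not independent of contact. The part of such contacts in this rise, and in the background ranges given above, was not tested. Copy number was not measured in these cells, and fewer copies of a chromosome or an arm cannot be told apart from less contact by OE alone. The part of copy number in the low pairs was not tested.

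For the other chromosomes of the same cells, the values of both groups overlapped. The mean share of the chromosomes that were not low, each relative to the cells without, ran from 0.805 (cell 42) to 1.16 (cell 49) in the cells with a low chromosome, with a median of 0.946. In the cells without, the range was 0.810 to 1.24 with a median of 0.978. The medians differed by -0.0318, where single cells without a low chromosome had an SD of 0.115, and 4 of 17 against 16 of 34 cells were above 1. Whether the groups differ was not tested. The sign of this difference changed with the contact call, to 0.00319 at an OE of at least 2 and 0.0234 with the top 30% of bins in each cell. Over all chromosomes without the low ones, the share of bins in contact was 26.4% to 37.4% with a median of 30.6%, against 26.4% to 39.9% with a median of 31.9%.

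Chromosome X, which is no autosome and lay outside the rule, had a share of 29.1% to 49.8% in the cells with a low chromosome (median 42.4%) and 34.4% to 58.2% in those without (median 45.3%). Its ratio to the cells without exceeded 1 in 6 of 17 and in 19 of 34 cells. The ranges overlapped, but the 3 lowest of all cells, 29.1% in cell 9, 31.3% in cell 43 and 33.6% in cell 10, each had a low chromosome.

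Cells with several low chromosomes differed in how the rest behaved. In cell 42, chromosomes 13, 14, 2 and 6 also lay far below the mean of 51 cells, at 0.519, 0.554, 0.582 and 0.647 of it. In the same cell chromosomes 3 (1.15) and 4 (1.07) lay above the mean. Relative to the cells without a low chromosome, the lowest other chromosome of cell 18 was 6, at 0.670, and that of cell 41 was 20, at 0.688. Cell 10, beside its low chromosomes 11 and 12, had 0.667 on 9:22 and 1.38 on chromosome 13 by the same measure. In cell 32 the others ran from 0.712 on chromosome 18 to 1.13 on chromosome 15.

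Cells with a single low chromosome differed as well. Cell 49, low on chromosome 15, had 8 of its 16 other chromosomes above 1.2, and cell 39, low on chromosome 21, had 0 of 16 above 1. These cells also differed in depth, with 304780 reads in cell 49 and 96876 in cell 39. The part of depth in this contrast was not tested. Cell 31, low on chromosome 15, also had no contact in the 785 measured bins of chromosome 16, a chromosome outside the rule with a mean of 17.6% in the cells without a low chromosome. A share of 0 there allows up to 0.382%. Cell 31 was the only cell at 0 on chromosome 16, and the lowest of the cells without a low chromosome had 0.764%. Its chromosome 17 was at 1.16%, within the range of those cells (0.642% to 16.9%).

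**Figure D5:**
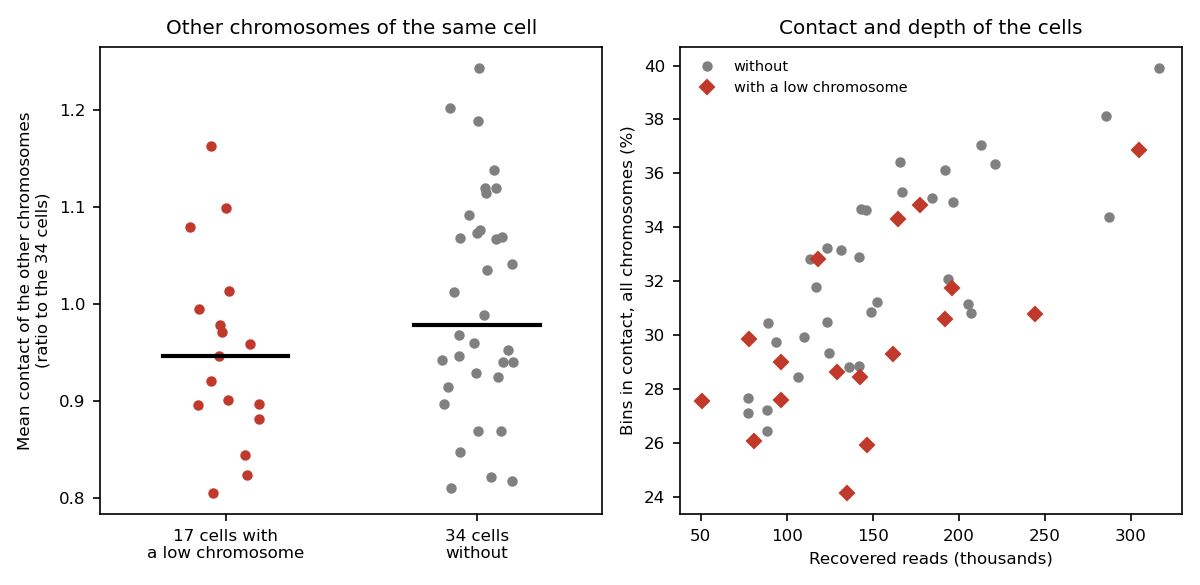
Left, mean contact of the chromosomes that are not low (vertical axis, ratio to the 34 cells without a low chromosome), with each point a cell and the bar the median, 0.946 in 17 cells and 0.978 in 34. Right, share of all measured bins in contact (%) against recovered reads (in units of 1000), where both groups spread over mostly the same depths and the shallowest cells lie in the lower part of the contact range.

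Depth was similar in both groups. Reads recovered from the ratios ran from 50978 to 304780 in the cells with a low chromosome (median 142540) and from 77387 to 316463 in those without (median 142548), and 8 of 17 and 17 of 34 cells lay under the median of all. A typical bin just at the border of contact held 2.12 reads in the shallowest cell and 13.2 in the deepest. With every cell thinned to 50978 reads, 24 of the 26 pairs were still low. The exceptions were chromosome 12 of cell 10, at 0.502 of the mean, and chromosome 21 of cell 32, at 0.555.

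Other contact calls kept most of the pairs under 50% of their chromosome's mean. Of the 26 pairs, 25 were under it at an OE of at least 2, 21 with the top 30% of bins in each cell and 19 at an OE of at least 0.5. These counts keep a pair also where the mean share of its chromosome falls under the 20% minimum. The call at 0.5 counts weaker signal as contact, and under it the median ratio of the 26 pairs was 0.443 against 0.361 at an OE of at least 1.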

How the data were processed

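Single-cell DamID for Lamin B1 was deposited as 1 table of OE ratios (observed over expected signal) over 30376 bins of 100 kb for 51 of 52 labelled cells. Cell 47 was not analysed here. Cutadapt and Bowtie2 2.1.0 were used with hg19, per the submitters' processing notes. How the expected value was made and duplicates were treated is not given in the sources used here. A total of 3792 bins had no value and were left out.

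Reads were recovered as whole multiples of each cell's step (100% of values above 0 within 0.02 reads) and may be distinct sites. On simulated ratios over 24599 bins, 99.99% were recovered. In simulated cells, 10 of 10 planted low pairs were found with 0 others. This checks only that the rule was applied correctly. It gives no rate of false or missed low pairs in the real cells, where neighbouring bins are not independent and overall contact differs between cells. Every low pair is named, and the lowest 5 and all cells with 2 or more are described further. Members and lists were chosen with earlier results of these data known. No gene or sequence is given, since the annotation at hand is of another build. Python 3.11.15, numpy 2.4.6, pandas 2.3.3 and matplotlib 3.10.9 were used.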

Additional observations from a re-analysis of the deposited data

How the results depend on the processing

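Of 435 values under alternatives, 422 kept their direction and moved by less than the spread, or for counts by at most 1.5 times. Most of the 435 come from leaving out 1 cell at a time, which changes little. The 11 values that moved further and the 2 that changed sign all came from the other alternatives. Calling contact at an OE of at least 2 gave 11 low pairs in 10 cells and 1 pair at 150% of the mean, with fewer chromosomes reaching the 20% minimum. Only 4 of the 26 low pairs of the main rule were among the 11. The call at 2 turned the difference of the other chromosomes to 0.00319, and taking each cell's top 30% of bins turned it to 0.0234, with 7 high pairs. Marking under 40% of the mean gave 15 pairs in 10 cells. A minimum mean share of 25% gave 10 low pairs in 7 cells and 2 high pairs. Dividing by the cell's own share gave 7 high pairs, and bins with an expected number of at least 100, chosen after seeing the data, gave 20. Leaving out each cell in turn gave 22 to 26 low pairs, the fewest without cell 42, in 16 to 17 cells. No paired analysis was possible because the cells form 1 group. Depth limits calls in single bins, and the number of low pairs depends on where the border is set.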
